A study of Homo sapiens with 9 samples.

Results

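The AP-1 and EGR immediate early genes followed here were FOS, FOSB, FOSL1, FOSL2, JUN, JUNB, JUND, EGR1, ATF3 and IER2. They were taken by symbol from a table of 25886 genes, and 10 of 10 were in it. The libraries were from HT29, an established human colorectal cancer line. The study made stable shRNA knockdowns with lentiviruses and selected all groups with puromycin. Total RNA was sequenced after removal of rRNA, with 3 libraries per group: Control, DNMT1 knockdown and DNMT3B knockdown. Their columns are named shCTR, shDNMT1 and shDNMT3B, and Control is read from this as a control shRNA. DNMT1 is the enzyme that maintains DNA methylation through replication, and DNMT3B can add it where no mark was present. The series was designed around a fall of these enzymes under proteasome inhibitors, and the comparisons ask how RNA levels differ when either enzyme is lowered. Cells were kept in medium with fetal bovine serum, and the labels name no acute growth factor or serum stimulus. They also do not say whether the cells were clones or whether each replicate was its own culture, and every p-value therefore covers only the spread among these libraries.

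Immediate early genes are switched on within minutes of a growth signal or stress by transcription factors that are already present, and their messages and proteins are usually short-lived. FOS and JUN family proteins pair through a leucine zipper to form AP-1, which binds DNA at a short element upstream of many growth, invasion and stress genes. EGR1 is a zinc finger factor that binds GC-rich elements and induces its own corepressors. In colorectal cancer cells the RAS, RAF and ERK kinases feed this program, and they also stabilise FRA1, the protein of FOSL1. The group is wider than its name, since JUND is largely constitutive, ATF3 is best known as a stress factor, and IER2 belongs to neither the AP-1 nor the EGR family.

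Library totals ran from 26.9 to 33.7 M counts (M, 1e6) in Control, from 23.4 to 24.2 M with DNMT1 knockdown and from 18.8 to 26 M with DNMT3B knockdown. The targeted genes checked the labels. DNMT1 was at 458 CPM (counts per 1e6 counts of the TMM-scaled library) in Control and 252 with DNMT1 knockdown, which is 55.0% of Control. DNMT3B was at 61.3 CPM in Control and 30.5 with DNMT3B knockdown, which is 49.7% of Control, and DNMT1 rose by 0.09 on the log2 scale there (edgeR adjusted p = 0.0171). Of 12 colorectal epithelial markers, 6 were above 1 CPM in every library, namely KRT8, KRT18, KRT19, EPCAM, CDH1 and CDX2, while 5 were below 1 CPM in each group mean. Those 5 were VIL1, CDH17, LGALS4, GPA33 and CDX1, which are markers of differentiated gut epithelium, and CDX1 was at 0 in Control and DNMT3B knockdown and at 0.014 CPM with DNMT1 knockdown. The remaining marker, KRT20, is also one of differentiated epithelium. It averaged 1.03 CPM in Control, 1.63 with DNMT1 knockdown and 2.02 with DNMT3B knockdown. Markers of other cell types were low but moved with a group. The summed level of 8 stromal markers was 21.4 to 25.1 CPM in Control, 25.5 to 29.8 with DNMT1 knockdown and 33.6 to 36.2 with DNMT3B knockdown, with COL1A2 and DCN at 0. The sum of 8 leukocyte markers was 24.1 to 25.3, 24.3 to 25.8 and 35.9 to 41.9 CPM in the same order. Most of it was CD68, and PTPRC, which defines leukocytes, averaged 0.101, 0.0560 and 0.148 CPM. The sum of 5 endothelial markers was 2.89 to 3.39, 2.23 to 2.53 and 4.41 to 5.12 CPM. The part of these shifts in the results was not tested. In bulk RNA, fewer cells with a message and less message per cell cannot be told apart.

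The genes lie on 6 chromosomes in GENCODE release 29 on GRCh38. FOS is at chr14:75278774-75282230, EGR1 at chr5:138465490-138469315, FOSL2 at chr2:28392448-28417312, FOSB at chr19:45467995-45475179, JUNB at chr19:12791496-12793315 and IER2 at chr19:13150415-13154908, all on the plus strand. ATF3 is also on the plus strand, at chr1:212565334-212620777. On the minus strand are FOSL1 at chr11:65892049-65900573, JUN at chr1:58780788-58784327 and JUND at chr19:18279760-18281622. JUNB shares 259 exon bases (14.2% of its exons) with HOOK2 on the other strand, and IER2 shares 946 (30.8%) with the antisense gene AC011446.2. The use of strand in counting is not given in the sources used here, so the values of JUNB and IER2 are uncertain to that extent.

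The start-site windows of 9 of the 10 genes were found in the RefSeq promoter table for GRCh38.p14, which takes 250 bases before and 50 after each start. DNMT1 and DNMT3B act at CpG dinucleotides, so the CpG count of each window is given as context, and methylation was not measured. All 35116 windows of that table had a median of 14 CpGs. JUND had 49, EGR1 33, FOS 30, FOSL2 and JUNB 29 each, IER2 27, FOSB 23 and JUN 16, whereas the ATF3 windows had 4 and 1. The ATF3 windows are chr1:212565157-212565456 and chr1:212614768-212615067, while GENCODE lists 11 transcripts of ATF3. Any start of ATF3 outside them was not counted, so the 2 values do not describe every ATF3 promoter. These windows were searched on both strands for the serum response factor site known as the CArG box (in 1.29% of all windows), the cAMP response element TGACGTCA (1.85%), the AP-1 element TGACTCA (4.95%), the EGR elements GCGGGGGCG (5.07%) and GCGTGGGCG (0.795%) and the ETS core CCGGAA (17.2%). TGACG, which is part of the cAMP response element and overlaps it, was added after the sequences had been seen and is in 24.6% of all windows. The stretches before the transcribed part are shown for FOS and EGR1, the classic serum-induced pair, for FOSB, and for JUND, which was chosen after the sequences were seen because it has the most CpGs. Each is written 5′ to 3′ on the gene's own strand, with capitals for the matches to these elements. FOS is chr14:75278578-75278773, plus strand, EGR1 is chr5:138465229-138465478, plus strand, FOSB is chr19:45467746-45467994, plus strand, and JUND is chr19:18281623-18281872, minus strand.
FOS: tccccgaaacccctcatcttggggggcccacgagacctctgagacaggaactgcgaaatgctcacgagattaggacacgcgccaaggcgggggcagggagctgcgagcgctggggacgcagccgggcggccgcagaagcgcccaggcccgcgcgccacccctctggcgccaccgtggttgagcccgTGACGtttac
EGR1: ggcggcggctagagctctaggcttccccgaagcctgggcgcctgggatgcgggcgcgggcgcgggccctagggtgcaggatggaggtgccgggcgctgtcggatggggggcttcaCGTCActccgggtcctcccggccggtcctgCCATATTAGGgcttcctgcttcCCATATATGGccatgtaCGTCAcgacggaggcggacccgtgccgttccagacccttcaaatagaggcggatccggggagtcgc
FOSB: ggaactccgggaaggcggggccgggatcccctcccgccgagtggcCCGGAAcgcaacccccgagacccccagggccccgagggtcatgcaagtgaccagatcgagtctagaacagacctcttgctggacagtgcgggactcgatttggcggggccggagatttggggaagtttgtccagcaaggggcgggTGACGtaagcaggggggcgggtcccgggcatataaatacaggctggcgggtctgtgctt
JUND: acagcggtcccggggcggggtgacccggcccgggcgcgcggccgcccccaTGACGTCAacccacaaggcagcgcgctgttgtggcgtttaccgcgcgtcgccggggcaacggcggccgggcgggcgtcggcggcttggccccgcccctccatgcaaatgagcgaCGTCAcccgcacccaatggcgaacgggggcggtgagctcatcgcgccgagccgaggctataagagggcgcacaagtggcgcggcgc
In the EGR1 stretch the 2 longer capital runs are CArG boxes, CCATATTAGG at -105 to -96 and CCATATATGG at -83 to -74 from the start, and no other of the 9 genes had a CArG box in its window. TGACG was found, on either strand, in the windows of all of the 9 genes except ATF3. In FOS and FOSB it lay at -64 to -60 and at -60 to -56. An ETS core was in FOSB at -205 to -200 and in IER2 at -26 to -21. JUND held the only full cAMP response element among the 9 genes, at -200 to -193. FOSL2 was the only one with an AP-1 element, at 4 to 10 bases after its RefSeq start, and none held an EGR element. The FOSL2 and JUN windows, chr2:28392608-28392907 and chr1:58783998-58784297, lie wholly within the GENCODE genes given above. Their CpG counts and matches are therefore not of sequence before the transcribed part in that annotation. A match is a string of letters, not a shown binding site, and no match says only that the letters are not in that window.

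Levels of different genes were compared as CPM per kb of exon. In Control cells FOSL1 was highest at 139 ± 6.29 CPM per kb (SD, n = 3). JUND followed at 98.7 ± 5.19, JUNB at 66.8 ± 4.11, IER2 at 51.6 ± 1.84 and EGR1 at 36.4 ± 1.13. JUN was at 14.2 ± 0.688, FOSL2 at 9.26 ± 0.248, ATF3 at 3.25 ± 0.208, FOS at 2.42 ± 0.189 and FOSB at 1.41 ± 0.123. No pair of neighbours in that order overlapped between Control libraries. With DNMT1 knockdown FOSL1 (116 ± 6.20 CPM per kb) and JUND (110 ± 5.99) overlapped, and so did FOS (2.82 ± 0.159) and ATF3 (2.77 ± 0.180), whose order was the opposite of that in Control. With DNMT3B knockdown FOSL1 stood further ahead, at 195 ± 4.29 against 102 ± 2.94 CPM per kb for JUND, and FOSL2 (16.5 ± 0.637) and JUN (15.7 ± 0.968) overlapped, with the FOSL2 mean the higher. FOS itself, the namesake of the family, was therefore among the 3 lowest of the 10 genes in all 3 groups. The length was the union of all exons of a gene, and the overlaps and the swap of FOS and ATF3 can depend on it. That union is 3238 bases for FOS and 4040 for ATF3, against 2158 and 2103 for their longest transcripts. In CPM without length, ATF3 (11.2) was above FOS (9.13) with DNMT1 knockdown.

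Against Control, DNMT1 knockdown raised 6 of the 10 genes and lowered 2 (edgeR, Benjamini-Hochberg adjusted p below 0.05). EGR1 and FOSL2 rose by 0.40 and 0.41 on the log2 scale, FOS, JUNB, JUND and IER2 rose by 0.15 to 0.22, and FOSL1 and ATF3 fell. Of all 16660 tested genes, 21% were called higher and 20.8% lower in this comparison. Among the 11788 tested genes that averaged 5 CPM or more, a level that all 10 reached, the shares were 23.4% and 26.7%. The median log2 fold change of the 10 genes was 0.15, beside -0.0025 over all tested genes. Libraries of the groups did not overlap for 8 of the 10, against 49.4% of all tested genes and 56.9% of those with at least 5 CPM.

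DNMT3B knockdown raised 8 of the 10 genes and lowered 0. FOSL2 and ATF3 rose most, by 0.84 and 0.82 on the log2 scale, followed by FOSB, FOSL1, EGR1, FOS, JUNB and JUN, and JUND and IER2 did not pass the test. In this comparison 23.1% of all tested genes were called higher and 24.6% lower, and 24.3% and 32% of those with at least 5 CPM. The count of lower genes was also 0 in edgeR at an unadjusted p below 0.05, in DESeq2 and in limma-voom. The median log2 fold change was 0.44, beside 0.0023 over all tested genes. Libraries did not overlap for 8 of the 10, against 54.1% of all tested genes and 61.5% of those with at least 5 CPM. Both comparisons use the same 3 Control libraries, so their values are given side by side and are not independent.

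The knockdowns were then compared directly, as the test of their difference. Here 7 of the 10 genes were lower with DNMT1 knockdown, namely FOS, FOSB, FOSL1, FOSL2, JUN, JUNB and ATF3, and JUND alone was higher. Of all tested genes 20.9% were called lower and 24.3% higher, and 24.1% and 29.8% of those with at least 5 CPM. The median log2 difference of the 10 genes was -0.22, beside 0.00091 over all tested genes. Libraries did not overlap for 7 of the 10, against 52.2% of all tested genes and 59.7% of those with at least 5 CPM, so this count was near the latter share. The JUND call was narrow, with a log2 difference of 0.10 ± 0.040 (SE, adjusted p = 0.0494 in edgeR), and it was lost in 10 of 17 alternative fits. EGR1 and IER2 did not pass the test between the knockdowns.

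**Figure D1:**
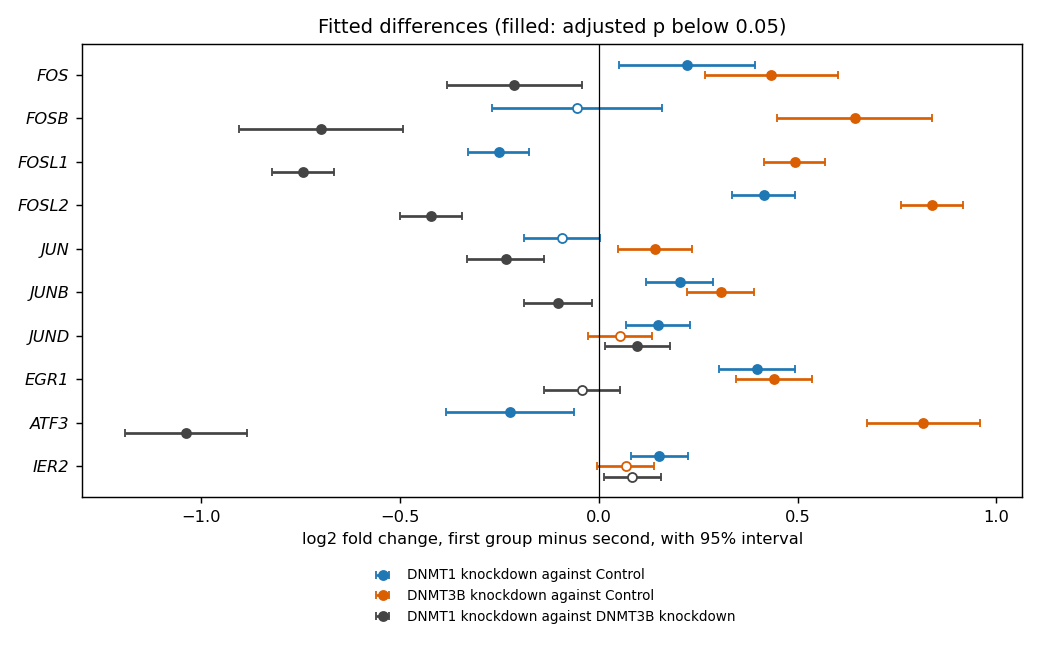
Fitted log2 fold change of each gene in the 3 comparisons, with its 95% interval (horizontal axis, first group minus second) and filled points for an adjusted p below 0.05. The DNMT3B knockdown points of all 10 genes lie to the right of 0, whereas FOSB, FOSL1, JUN and ATF3 have DNMT1 knockdown points to the left of it, filled for FOSL1 and ATF3.

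Within a group the genes often shared the order of their libraries. Control replicate 1, the deepest library at 33.7 M counts, was the lowest of the 3 Control libraries for 10 of the 10 genes, whereas it was lowest for 33.3% of all tested genes and for 12 of 38 other immediate early genes. DNMT1 knockdown replicate 1 was lowest of its group for 7 of the 10, for 34.3% of all tested genes and for 20 of the 38 others. DNMT3B knockdown replicate 2, the shallowest library at 18.8 M counts, was lowest for 6 of the 10, for 35.9% of all tested genes and for 14 of the 38 others. Without Control replicate 1 the genes called higher were 5 with DNMT1 knockdown and 7 with DNMT3B knockdown, and FOS (log2 fold change 0.16, adjusted p = 0.185) and JUN (0.12, 0.0674) were the ones lost. The part of depth in this order was not tested.

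FOS encodes the founding FOS family protein, which does not pair with itself and needs a JUN protein to bind DNA. It was read at 7.16, 8.08 and 8.31 CPM in the Control libraries, at 8.67, 9.04 and 9.68 with DNMT1 knockdown and at 10.4, 11.2 and 10.2 with DNMT3B knockdown. No library of one group overlapped another group, so the order was Control, DNMT1 knockdown and DNMT3B knockdown throughout. The rise was 0.22 ± 0.084 (log2 ± SE, adjusted p = 0.0327) with DNMT1 knockdown and 0.43 ± 0.082 (5.19e-05) with DNMT3B knockdown. The DNMT1 knockdown call was lost in DESeq2 (adjusted p = 0.107) and without Control replicate 1 or DNMT1 knockdown replicate 2 or 3 (0.0568 to 0.185). Between the knockdowns the difference was -0.21 ± 0.083 (adjusted p = 0.0375), and that call was lost in DESeq2 (0.0959) and without any of 4 knockdown libraries, which were replicates 1 and 2 of either knockdown (0.0588 to 0.134).

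FOSB, whose product is a close relative of FOS with a strong activating domain, was read at 7.04, 8.19 and 8.25 CPM in Control. It was at 6.89, 6.44 and 9.18 CPM with DNMT1 knockdown, which spans the Control range, and at 12.7, 10.9 and 12.6 CPM with DNMT3B knockdown, all above the other 6 libraries. The rise with DNMT3B knockdown was 0.64 ± 0.095 (adjusted p = 1.36e-06), or 1.56-fold. With DNMT1 knockdown the log2 difference was -0.054 ± 0.10 (adjusted p = 0.712), with an interval of -0.27 to 0.16, and it changed sign without replicate 1 or 2 of that group (0.0088 and 0.047). The knockdowns differed by -0.70 ± 0.10 (adjusted p = 9.52e-07). FOSB had the fewest counts of the 10 genes, down to 151 in a library, which limits its precision.

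FOSL1 encodes FRA1, which lacks the activating domain of FOS and is prominent in invasive carcinoma cells. Its Control libraries read 250, 274 and 261 CPM. The DNMT1 knockdown libraries read 207, 222 and 231 CPM, all below Control, and the DNMT3B knockdown libraries read 360, 369 and 376 CPM, all above it. The fall was 0.25 on the log2 scale (log2 fold change -0.25 ± 0.038, adjusted p = 2.80e-06) and the rise was 0.49 ± 0.038 (2.02e-12). The direct difference of -0.74 ± 0.038 (adjusted p = 1.68e-16) put FOSL1 1.68-fold lower with DNMT1 than with DNMT3B knockdown. These 3 calls held in all 17 alternative fits.

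FOSL2 encodes FRA2, the other FOS family member without that activating domain. It was read at 64.9, 68.3 and 65.7 CPM in Control, at 86.0, 89.7 and 89.3 with DNMT1 knockdown and at 123, 114 and 118 with DNMT3B knockdown. The groups were separate and each was tight. FOSL2 rose by 0.41 ± 0.039 (adjusted p = 2.91e-10) and by 0.84 ± 0.038 (5.92e-18), the latter being 1.79-fold, and the knockdowns differed by -0.42 ± 0.038 (7.8e-11). Its 3 calls also held in all 17 alternative fits, and in the same DNMT1 knockdown libraries FOSL1 was lower and FOSL2 higher than in Control.

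JUN encodes c-Jun, the strongest activator of its family and a partner of every FOS protein. It was among the least changed of the 10 genes. Its levels were 48.6, 49.5 and 53.2 CPM in Control, 47.5, 48.0 and 46.3 with DNMT1 knockdown and 56.1, 51.7 and 58.5 with DNMT3B knockdown. The DNMT1 knockdown libraries all lay below Control, but the log2 difference of -0.093 ± 0.047 (interval -0.19 to 0.0020) did not pass the test (adjusted p = 0.110). With DNMT3B knockdown JUN rose by 0.14 ± 0.046 (adjusted p = 0.0118), with overlapping libraries, and the call was lost without Control replicate 1 (0.0674) or DNMT3B knockdown replicate 3 (0.114). The knockdowns differed by -0.23 ± 0.048 (adjusted p = 0.000146), with no overlap between their libraries.

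JUNB, a weaker activator that can restrain c-Jun, was read at 114, 122 and 129 CPM in Control, at 133, 143 and 144 with DNMT1 knockdown and at 156, 144 and 150 with DNMT3B knockdown. Every knockdown library was above every Control library. It rose by 0.20 ± 0.042 (adjusted p = 0.000183) and by 0.31 ± 0.041 (2.76e-07). The difference between knockdowns was -0.10 ± 0.042 (adjusted p = 0.0432) with overlapping libraries, and that call was lost in DESeq2 (0.0653) and without DNMT1 knockdown replicate 1 or 2 or DNMT3B knockdown replicate 1 or 3 (0.0564 to 0.250).

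JUND, whose product is linked to slow growth in many cells, was read at 175, 183 and 194 CPM in Control, at 193, 215 and 205 with DNMT1 knockdown and at 188, 187 and 197 with DNMT3B knockdown. The groups overlapped in every pairing. JUND rose by 0.15 ± 0.040 (adjusted p = 0.00270) with DNMT1 knockdown. With DNMT3B knockdown the log2 difference was 0.053 ± 0.040 (adjusted p = 0.280), with an interval of -0.028 to 0.13.

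EGR1 was the gene on which the knockdowns differed least. Its levels were 111, 115 and 118 CPM in Control, 137, 150 and 165 with DNMT1 knockdown and 159, 144 and 161 with DNMT3B knockdown. Every knockdown library was above every Control library, and the knockdown groups overlapped. EGR1 rose by 0.40 ± 0.047 (adjusted p = 3.06e-08) with DNMT1 knockdown and by 0.44 ± 0.047 (3.04e-09) with DNMT3B knockdown, and both calls held in all 17 alternative fits. The knockdowns differed by -0.042 ± 0.047 (adjusted p = 0.493), with an interval of -0.14 to 0.053. DNMT1 knockdown replicates 1 and 3 moved that value most, since it was 0.022 without the former and -0.11 (adjusted p = 0.0487) without the latter. It also shifted without DNMT3B knockdown replicate 2 (-0.088) or 3 (-0.012).

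ATF3 showed the largest difference between knockdowns. It encodes a bZIP factor of the ATF and CREB group that is induced by DNA damage, by the p53 pathway and by the integrated stress response, and that can pair with JUN proteins. Its levels were 12.2, 13.7 and 13.5 CPM in Control, 12.1, 10.8 and 10.8 with DNMT1 knockdown and 20.7, 23.6 and 24.8 with DNMT3B knockdown. The DNMT3B knockdown libraries stood well above the other 6, and the DNMT1 knockdown libraries lay just below Control. ATF3 rose by 0.82 ± 0.070 (adjusted p = 2.73e-11), or 1.76-fold, with DNMT3B knockdown and fell by 0.22 (log2 fold change -0.22 ± 0.079, adjusted p = 0.0229) with DNMT1 knockdown. The fall was no longer called without Control replicate 2 or 3 or without DNMT1 knockdown replicate 2 or 3 (adjusted p of 0.0706 to 0.0959). The direct difference was -1.04 ± 0.075 (adjusted p = 5.52e-13), which is 2.05-fold.

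IER2 encodes a small nuclear protein induced with FOS and EGR1 by serum. It was read at 153, 158 and 164 CPM in Control, at 170, 181 and 177 with DNMT1 knockdown and at 166, 167 and 166 with DNMT3B knockdown. The 3 groups did not overlap, although the gap between Control and DNMT3B knockdown was small. IER2 rose by 0.15 ± 0.035 (adjusted p = 0.000704) with DNMT1 knockdown. With DNMT3B knockdown the difference was 0.068 ± 0.035 (adjusted p = 0.114), with an interval of -0.0041 to 0.14, and it was called without Control replicate 3 (0.0460). Between the knockdowns it was 0.084 ± 0.035 (adjusted p = 0.0519), just above the threshold of 0.05, and it was called with limma-voom (0.0497), without TMM scaling (0.0480) and without DNMT1 knockdown replicate 1 (0.0201).

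**Figure D2:**
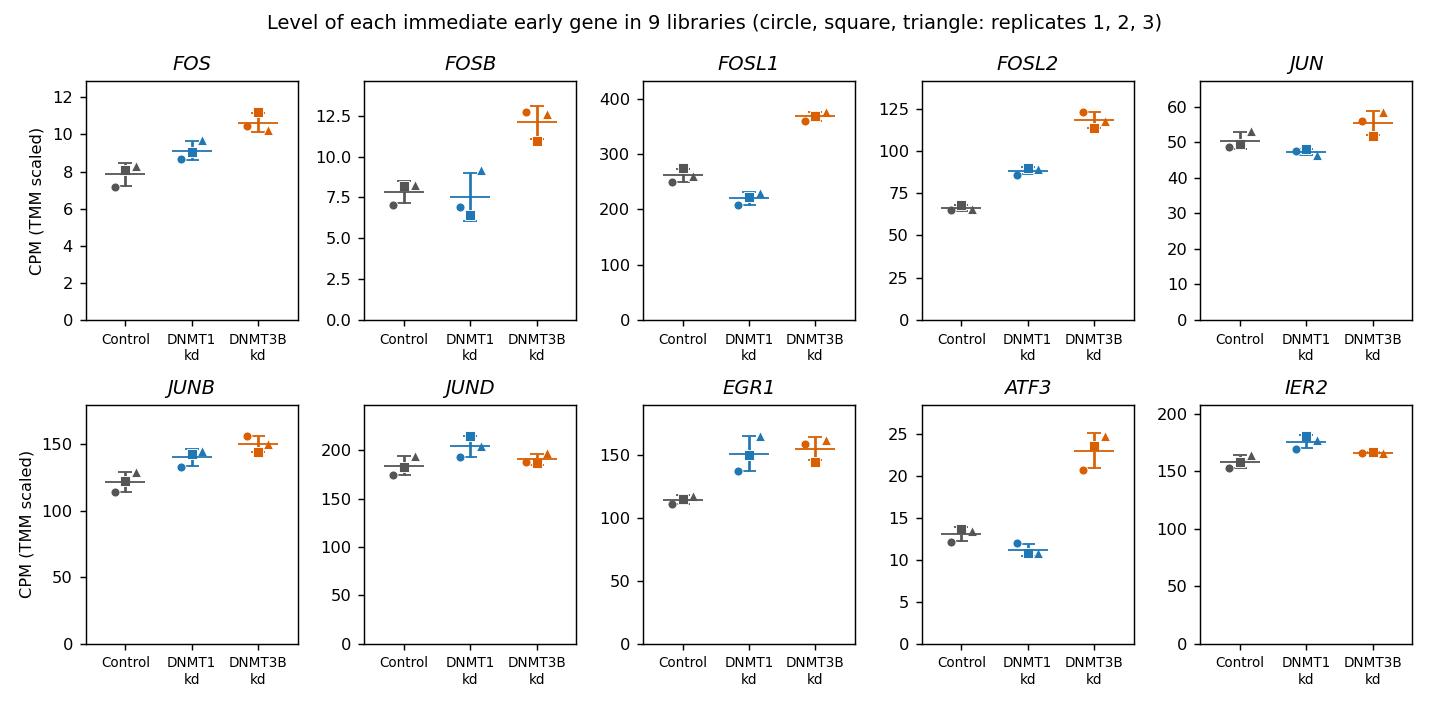
Level of each gene in CPM (vertical axis, TMM-scaled, from 0) in the 9 libraries, with the group mean (long line) and SD (bars, n = 3), and circles, squares and triangles for replicates 1, 2 and 3. FOSL1 and ATF3 sit below Control with DNMT1 knockdown and above it with DNMT3B knockdown, while EGR1 and JUNB sit above Control in both.

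The make-up of each AP-1 family was described as each gene's share of the family's summed level per kb, with no test. The 4 FOS family genes summed to 152 ± 6.77 CPM per kb in Control, 133 ± 6.78 with DNMT1 knockdown and 217 ± 3.88 with DNMT3B knockdown. FOSL1 made up 91.4 ± 0.110% of it in Control, 87.6 ± 0.215% with DNMT1 knockdown and 89.9 ± 0.446% with DNMT3B knockdown, so the sum largely followed FOSL1. FOSL2 was 6.10 ± 0.123%, 9.29 ± 0.305% and 7.61 ± 0.388% in the same order, with no overlap between the groups. FOS was 1.60, 2.12 and 1.51%, and FOSB was 0.927, 1.01 and 1.00%. Without length correction FOSL1 was 76.2, 67.7 and 72.3%.

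The 3 JUN family genes summed to 180 ± 9.93 CPM per kb in Control, 200 ± 9.02 with DNMT1 knockdown and 201 ± 5.58 with DNMT3B knockdown. JUND was 54.9 ± 0.221% of it in Control, 54.8 ± 0.725% with DNMT1 knockdown and 51.1 ± 1.05% with DNMT3B knockdown, while JUNB was 37.1 ± 0.359, 38.5 ± 0.697 and 41.1 ± 1.05%. JUN was the smallest part, at 7.93, 6.69 and 7.80%. These are shares of messages, and protein was not measured here.

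**Figure D3:**
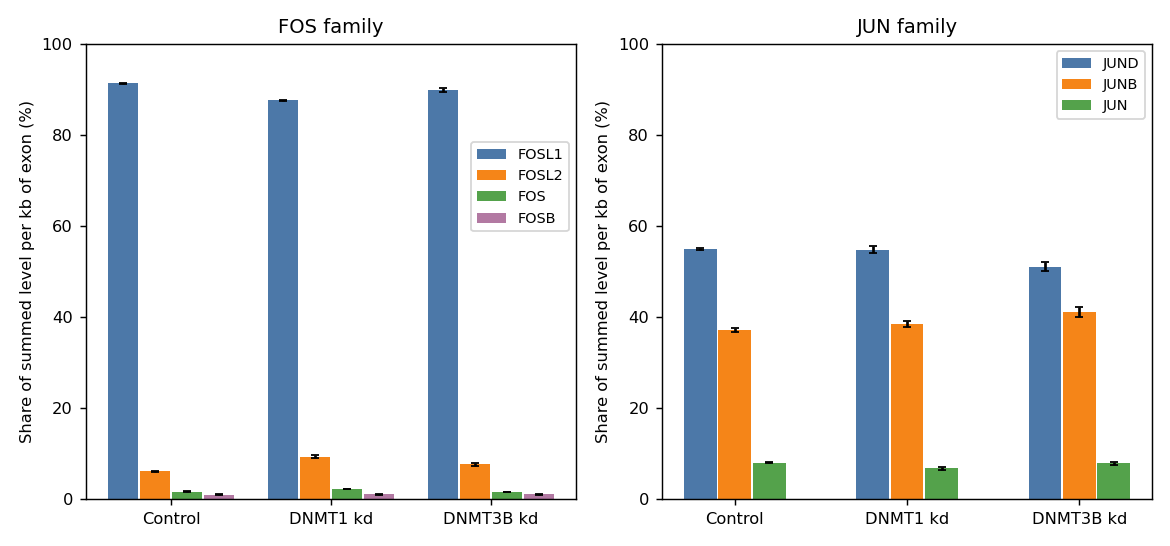
Share of each gene in the summed level per kb of exon of the FOS family (left) and the JUN family (right), in percent, as the mean of 3 libraries with SD bars. FOSL1 dominates the FOS family in every group, with its lowest share (87.6%) under DNMT1 knockdown.

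The wider immediate early program was read from 38 other genes, all of which were tested. For this and the lists below, 21% of all tested genes were called higher and 20.8% lower with DNMT1 knockdown. The shares were 23.1% and 24.6% with DNMT3B knockdown. Among genes of at least 5 CPM they were 23.4% and 26.7%, and 24.3% and 32%, in the same order. With DNMT3B knockdown 23 were called higher and 4 lower, with a median log2 fold change of 0.23. With DNMT1 knockdown 10 were called higher and 11 lower, with a median of -0.017, and these counts were near the shares among genes of at least 5 CPM. Between the knockdowns, 25 were lower and 6 higher with DNMT1 knockdown, against 20.9% and 24.3% of all tested genes. Without Control replicate 1, an alternative chosen after seeing the data, the counts against Control were 22 and 4 with DNMT3B knockdown and 9 and 9 with DNMT1 knockdown. KLF4, a Krueppel-like factor of the differentiated colon, rose from 24.6 ± 0.857 to 55.2 ± 0.551 CPM with DNMT1 knockdown (log2 fold change 1.16, adjusted p = 2.59e-19) and to 46.9 ± 2.47 with DNMT3B knockdown (0.93, 2.13e-16). NR4A3, an orphan nuclear receptor, rose from 2.63 ± 0.191 to 6.02 ± 0.675 CPM with DNMT3B knockdown (1.19, adjusted p = 5.81e-10). With DNMT1 knockdown NR4A3 averaged 4.88 ± 0.205 CPM, also above Control. CCN2, a matricellular protein and a YAP target, was at 9.34 ± 0.451 CPM in Control and fell to 4.12 ± 0.249 with DNMT1 knockdown (-1.18, adjusted p = 4.96e-12). The 4 that fell with DNMT3B knockdown, named after their values were seen, were SGK1, IER5L, MCL1 and GADD45B.

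The list of degraders of AP-1 messages and proteins held 14 tested genes, and some are themselves immediate early genes. It included ELAVL1, which is known for stabilising AU-rich messages, so the counts and medians of this list are not those of degraders alone. With DNMT1 knockdown 4 were higher and 3 lower, and with DNMT3B knockdown 7 were higher and 3 lower. The median log2 fold changes were 0.012 and 0.057, in that order. ZFP36L1, which binds AU-rich elements and speeds decay of short-lived messages, rose from 210 ± 4.47 to 543 ± 20.8 CPM with DNMT1 knockdown (log2 fold change 1.37, adjusted p = 9.78e-25) and to 398 ± 13.1 with DNMT3B knockdown (0.92, 8.51e-20). TRIB1, an adaptor of the COP1 ubiquitin ligase, rose from 398 ± 2.67 to 700 ± 15.1 and 695 ± 8.72 CPM (0.82, adjusted p = 7.83e-20, and 0.81, 1.62e-19). DET1, another part of that ligase, rose by 0.37 and 0.39 (adjusted p = 0.00223 and 0.00103).

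The kinases and factors that act upstream of these genes moved in both directions. Of 31 tested, 4 were higher and 9 lower with DNMT1 knockdown, and 9 were higher and 9 lower with DNMT3B knockdown, with medians of -0.013 and -0.0063 on the log2 scale. The 41.9% called with DNMT1 knockdown, higher and lower together, was near the share of all tested genes (21% higher and 20.8% lower). RPS6KA5, the kinase MSK1 that phosphorylates histone H3 and CREB at immediate early genes, rose by 0.29 (adjusted p = 0.000143) and 0.41 (5.24e-07). With DNMT1 knockdown RPS6KA3 and HRAS fell by 0.28 and 0.26 (adjusted p = 5.41e-07 and 0.000130). Both were also below Control with DNMT3B knockdown. RPS6KA3 averaged 93.9 CPM in Control, 77.2 with DNMT1 knockdown and 74.9 with DNMT3B knockdown, and HRAS 40.65, 34.0 and 32.5. With DNMT3B knockdown the ternary complex factor ELK3 rose by 0.45 and its relative ELK4 fell by 0.37 (adjusted p = 8.92e-12 and 2.48e-10).

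The ERK feedback genes, which are induced by ERK and often restrain it, were 17. With DNMT1 knockdown 5 rose and 4 fell, and with DNMT3B knockdown 5 rose and 5 fell, with median log2 fold changes of 0.055 and -0.024. DUSP4, a nuclear phosphatase of ERK, rose from 149 ± 0.728 to 280 ± 3.33 CPM with DNMT1 knockdown (log2 fold change 0.91, adjusted p = 3.78e-21), and DUSP5, another one, rose from 107 ± 4.46 to 193 ± 7.34 with DNMT3B knockdown (0.85, 2.44e-18). Between the knockdowns DUSP4 was 0.78 higher and DUSP5 lower by 0.54 (log2 difference -0.54) with DNMT1 knockdown, and both passed the test. With DNMT1 knockdown MYEOV and ETV1 also rose, by 0.51 and 0.36 (adjusted p = 2.83e-11 and 2.04e-07). MYEOV averaged 42.1 CPM in Control, 59.9 with DNMT1 knockdown and 55.0 with DNMT3B knockdown, and ETV1 31.1, 40.1 and 30.6. With DNMT3B knockdown DUSP7 rose by 0.45 and SPRY2, an inhibitor of RAS signalling, fell by 0.41 (adjusted p = 2.47e-11 and 1.49e-05).

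Other bZIP partners of AP-1 moved both ways. Of 17 tested (19 listed), 5 were higher and 8 lower with DNMT1 knockdown, and 5 were higher and 7 lower with DNMT3B knockdown, with medians of -0.097 and -0.069. BATF3 and the small MAF protein gene MAFK fell by 0.52 and 0.51 with DNMT1 knockdown (adjusted p = 0.000477 and 5.43e-08). CREB5 rose by 0.49 with DNMT1 knockdown and 0.67 with DNMT3B knockdown (adjusted p = 0.00363 and 8.63e-05). With DNMT3B knockdown MAFG fell by 0.35 (adjusted p = 1.08e-09). Its level was also below Control with DNMT1 knockdown, at 152 CPM in Control, 112 with DNMT1 knockdown and 119 with DNMT3B knockdown.

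Genes known as AP-1 targets moved in both directions. Of 22 tested (27 listed), 7 were higher and 11 lower with DNMT1 knockdown, and 9 were higher and 7 lower with DNMT3B knockdown, with medians of -0.13 and 0.042. F3, which encodes tissue factor, rose from 16.6 ± 0.309 to 35.1 ± 0.450 CPM with DNMT1 knockdown (log2 fold change 1.08, adjusted p = 2.24e-16) and to 40.6 ± 3.10 with DNMT3B knockdown (1.29, 1.71e-18). The keratin KRT7 rose by 0.99 and 1.10 (adjusted p = 4.04e-06 and 4.50e-07). ITGA2, an integrin subunit for collagen, rose by 0.61 with DNMT1 knockdown (adjusted p = 7.61e-15). LAMB3, a laminin chain of the basement membrane, rose from 26.3 ± 0.699 to 54.5 ± 1.09 CPM with DNMT3B knockdown (1.05, adjusted p = 4.42e-17) but fell by 0.26 with DNMT1 knockdown (adjusted p = 0.000508). Among the 11 that fell with DNMT1 knockdown were also EREG and PLAU, by 0.38 and 0.36, named after their values were seen.

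The 11 EGR1 corepressors and targets were split as well. With DNMT1 knockdown 2 rose and 4 fell, and with DNMT3B knockdown 4 rose and 5 fell, with medians of -0.060 and -0.031. FN1, which encodes fibronectin, rose by 0.43 and 0.54 (adjusted p = 1.67e-09 and 8.97e-12). With DNMT1 knockdown IGF2 rose by 0.62 and PDGFA fell by 0.30 (adjusted p = 0.000382 and 3.53e-05). With DNMT3B knockdown TGFBR1 fell by 0.54 and the corepressor NAB1 fell by 0.34 (adjusted p = 1.06e-10 and 3.56e-08).

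The ATF4 and CHOP pathway, a stress route known to induce ATF3, held 19 tested genes of 20 listed. With DNMT1 knockdown 2 were higher and 9 lower, and with DNMT3B knockdown 4 were higher and 9 lower. The part of this pathway in the ATF3 changes was not tested. The median log2 fold changes were -0.20 and -0.13. SLC7A11, which imports cystine, was at 190 ± 4.13 CPM in Control and fell to 88.8 ± 2.70 with DNMT1 knockdown (log2 -1.09, adjusted p = 5.66e-22). TRIB3 and PSAT1 fell by 0.69 and 0.60 in the same comparison (adjusted p = 1.90e-15 and 1.04e-14). TRIB3 averaged 111 CPM in Control, 68.8 with DNMT1 knockdown and 83.5 with DNMT3B knockdown, and SLC7A11 averaged 161 with DNMT3B knockdown. With DNMT3B knockdown PSAT1 fell by 0.48 (adjusted p = 1.55e-12), whereas VLDLR and SESN2 rose by 0.64 and 0.47 (0.000103 and 1.16e-08).

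**Figure D4:**
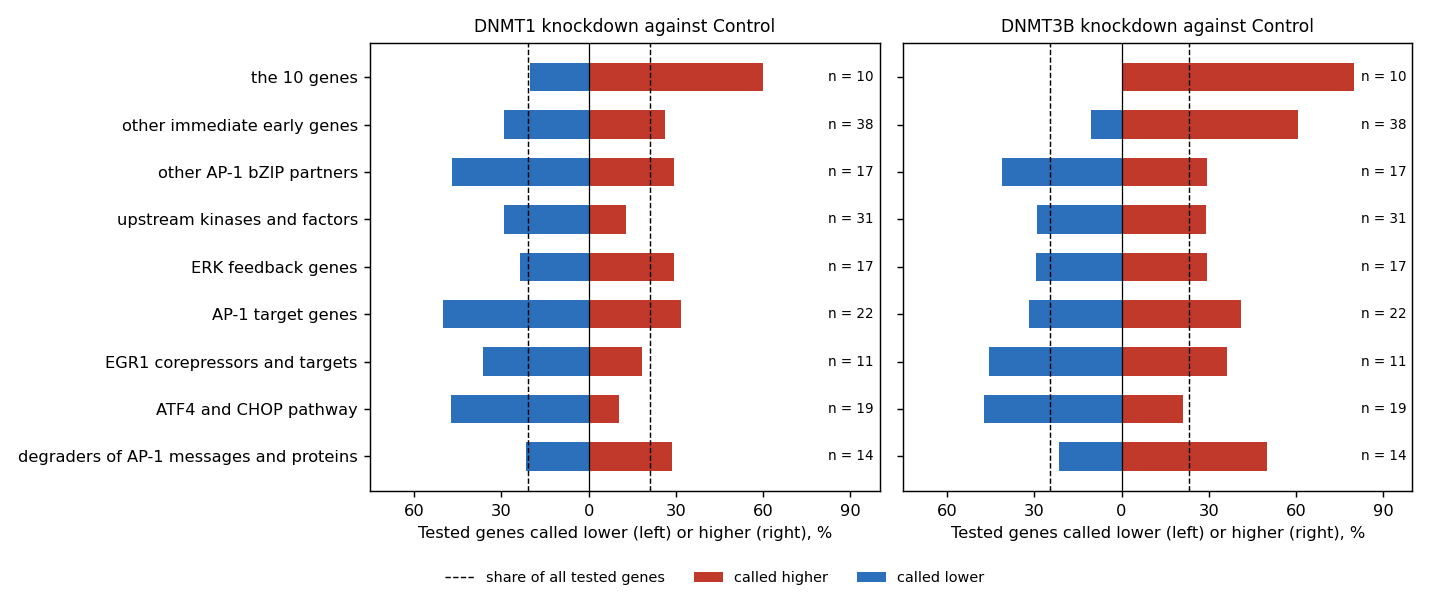
Share of tested genes called lower (bars to the left) or higher (bars to the right) in each list against Control, in percent, with DNMT1 knockdown (left panel) and DNMT3B knockdown (right panel), and dashed lines for the shares over all tested genes. The bars of the 10 genes reach 60% and 80% higher, and the 38 other immediate early genes have 23 higher and 4 lower with DNMT3B knockdown.

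Genes of the most similar pattern were sought for 5 of the 10 genes among 11778 others, by the root mean square distance of log2 CPM over the 9 libraries after centring on the Control mean, where 0 is an identical pattern. Closest to ATF3 were SYTL3 (0.104), ILDR2 (0.113) and CDKN1A (0.123). CDKN1A, the cell cycle inhibitor p21, averaged 146 CPM in Control, 131 with DNMT1 knockdown and 253 with DNMT3B knockdown. Closest to FOSL1 were ALAS1 (0.0749), AOC3 (0.0799) and AATBC (0.0815). Those closest to EGR1 were PRDM16 (0.0463), RHBG (0.0571) and FAM222B (0.0605), and those closest to FOS were TMEM175 (0.0534) and the ribosomal protein genes RPL37 (0.0608) and RPL38 (0.0619). DGAT1 (0.0360), NKRF (0.0387) and MED19 (0.0430) were closest to JUN. These distances describe the 9 libraries and carry no test.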

How the data were processed

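Unscaled counts of reads by gene symbol for the 9 libraries are in a single table that the authors deposited. STAR, featureCounts and DESeq2 with GRCh38 (hg38) are named in the submitters' processing notes, without versions, settings or annotation. Groups came from the sample labels. In R 4.3.3, edgeR 4.0.16 (filterByExpr by group, TMM, quasi-likelihood fit over all 9 libraries) tested 16660 genes, and unless another tool is named every adjusted p is its Benjamini-Hochberg value over all of them, with calls below 0.05. Standard errors were taken from the F statistics, and intervals are 95% and unadjusted. With 3 against 3 libraries an exact permutation test cannot go below 0.1, so none is given. Exon lengths came from GENCODE 29. Alternatives were DESeq2 1.42.0, limma 3.58.1 (voom), other scalings and filters, fits of 2 groups, a replicate block and leaving out each library. The fit was tested on simulated data. The 10 genes and all lists were chosen with earlier results of these data known. Named genes were all 10, DNMT1, DNMT3B, and, per list and knockdown, up to 3 called genes with the largest change and at least 2 CPM. A gene named for 1 knockdown only can also have changed with the other. A gene that this rule names among the bZIP partners is not reported here. For 5 of the 10, the 3 genes of closest pattern (mean of at least 5 CPM, 1 count added before the log) were named too. Replicates were distinct libraries, with a chi-square of 1.80 to 3.70 per degree of freedom for each pair, above sampling noise.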

Additional observations from a re-analysis of the deposited data

Results flagged for a closer look

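FOSL1 and ATF3 were called in opposite directions against Control in the 2 knockdowns, and the difference itself passed the test. FOSL1 was 0.74 lower on the log2 scale with DNMT1 than with DNMT3B knockdown (log2 difference -0.74, edgeR adjusted p = 1.68e-16), lower in 3 of 3 libraries. ATF3 was 1.04 lower (log2 difference -1.04, adjusted p = 5.52e-13), also in 3 of 3 libraries. The opposite direction of ATF3 rests on its smaller change, the fall with DNMT1 knockdown, which was lost in 4 of 17 alternative fits.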

How the results depend on the processing

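Of 510 recomputed values for the 10 genes, 472 kept their direction and their side of the threshold, 30 lost the call, 5 gained it and 3 changed sign. The sign changes were in values that had not been called. The log2 fold change of FOSB with DNMT1 knockdown against Control ran from -0.22 to 0.047 over the fits without 1 library (0.0088 without DNMT1 knockdown replicate 1, 0.047 without replicate 2), and the EGR1 difference between knockdowns from -0.11 to 0.022 (0.022 without DNMT1 knockdown replicate 1). The number of genes higher with DNMT1 than with DNMT3B knockdown was 0 with at least 1 CPM in 3 libraries, DESeq2, DESeq2 size factors and only the 2 groups compared, 2 without TMM, and 0 to 2 without 1 library each. The number lower with DNMT1 knockdown against Control was 1 to 2 without 1 library each. With the longest transcript as length the FOSL1 share was 91.0% in Control and 87.2% with DNMT1 knockdown. With no length correction it was 76.2, 67.7 and 72.3%, and the JUND share 51.7, 52.1 and 48.1%, in Control, DNMT1 and DNMT3B knockdown. The cause was not tested, except that the length itself makes the shares differ. Replicate numbers gave no consistent pairing. Correlations of deviations from the group mean ran from -0.216 to 0.254 for same-numbered libraries and from -0.244 to 0.229 for the others. Control replicate 1 did vary with DNMT1 knockdown replicate 1 (0.254) and DNMT3B knockdown replicate 2 (0.143), and these 2 with each other (0.209). They are the libraries that were lowest for most of the 10 genes. Control replicate 2 also varied with DNMT3B knockdown replicate 1 (0.229) and DNMT1 knockdown replicate 3 (0.157), and these 2 with each other (0.217). Control replicate 3 varied with DNMT1 knockdown replicate 2 (0.229). A block by replicate number does not cover these patterns, and their source was not tested. With that block 6 genes were higher and 2 lower with DNMT1 knockdown, 8 and 0 with DNMT3B knockdown, and 1 and 7 between them, with no call of the 10 genes changed. Depth limits FOSB most, with 151 counts in its lowest library.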
